A study of Mus musculus with 9 samples.

Results

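The clade A serpins of mouse liver were examined, a group of secreted proteins encoded side by side on chromosome 12. The 10 genes described are Serpina1a, Serpina1b, Serpina1c, Serpina1d, Serpina1e, Serpina3c, Serpina3k, Serpina3m, Serpina3n and Serpina6, taken by name from an expression table of 21898 genes, and read counts were found for all 10. In livers of mice on the MCD diet (deficient in methionine and choline), transcripts of 8 of the 10 fell against normal livers. They fell most for Serpina1e and Serpina3k, the pair of the 10 with the highest levels in normal liver. Of all genes tested, 22.6% fell. Fewer of the 10 were called when libraries were scaled to hepatocyte markers, and Serpina1e and Serpina3k still fell. In livers of mice on the same diet that were given tormentic acid, 7 of the 10 rose against diet alone. Of all genes tested, 11.8% rose. Scaled to hepatocyte markers, fewer of the 10 were called here too, and neither Serpina1e nor the sum of Serpina1a to Serpina1e was called. With tormentic acid, Serpina1e still stood far below its level in normal liver.

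Serpins are protease inhibitors that work as bait. The target protease cuts an exposed stretch of the serpin, the reactive centre loop, and is then trapped in a covalent complex, so that the letters of the loop set which protease is caught. Serpina1a to Serpina1e are the mouse copies of alpha-1-antitrypsin, which hepatocytes secrete into blood and which is best known as the inhibitor of neutrophil elastase. Serpina3c, Serpina3k, Serpina3m and Serpina3n belong to the mouse relatives of alpha-1-antichymotrypsin. A single gene in human corresponds to this whole mouse cluster. Serpina6 encodes corticosteroid-binding globulin, which has kept the serpin fold but carries glucocorticoids in blood.

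The material was RNA from liver of C57BL/6 mice in 9 libraries. The TA group, 3 libraries, had fatty liver disease induced by the MCD diet and received tormentic acid, a triterpenoid found in plants, at what is labelled a high dose. The model group, 3 libraries, had the diet-induced disease without the compound. The normal group, 3 libraries, is described as wild type and received saline. The sources used here give no sex, age, dose or duration, and do not say whether model and TA mice had a vehicle. Whether the libraries of a group are separate mice is not stated, so a p-value here reflects library spread only, which may be technical. Library totals ran from 13710002 to 16475794 counts. Of the hepatocyte markers, 9 of 10 were in the table and all 9 were detected in every group. Their summed level was 109329 to 149443 CPM (counts scaled to a common library size with TMM factors) in TA, 48647 to 79555 CPM in model and 120898 to 146846 CPM in normal libraries. Model replicate 2 had the highest hepatocyte sum of the model libraries and was the highest model library for 9 of the 10 serpins.

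The 10 serpins together took 1.18% to 1.22% of all counts in TA libraries, 0.511% to 0.780% in model libraries and 2.86% to 3.03% in normal libraries. The ranges of the 3 groups did not overlap. Levels between genes were compared with the authors' FPKM values, which divide counts by gene length and library total. In TA livers Serpina3k led with 1909 ± 538 FPKM, and overlapped with Serpina1b at 1668 ± 355 FPKM (SD, n = 3 each). In model livers Serpina1b led with 1166 ± 75.5 FPKM, apart from Serpina3k at 589 ± 352 FPKM, which overlapped with Serpina1a at 458 ± 42.0 FPKM. In normal livers Serpina1e led with 7458 ± 740 FPKM, followed by Serpina3k at 4414 ± 436 FPKM and Serpina1b at 1799 ± 148 FPKM, each apart from the next. Serpina1e thus stood in the first place in normal livers, in the fifth in TA livers and in the sixth in model livers. In TA livers it overlapped with its lower neighbour, Serpina3n, and in model livers with both neighbours, Serpina3n above and Serpina3m below. Serpina1c had the second lowest level in every group, at 33.9 ± 4.49 FPKM in TA, 14.9 ± 2.59 FPKM in model and 46.7 ± 10.2 FPKM in normal livers. Serpina3c was lowest everywhere, at 0.154 FPKM in TA, 0.424 FPKM in model and 0.0957 FPKM in normal livers.

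The 5 alpha-1-antitrypsin copies are close to identical, and the rows of the table could have shared reads. Their coding sequences in GENCODE M21 were 96.3% to 98.5% identical over the 10 pairs, with a median of 96.6%. In the annotation all 5 lie on the minus strand of GRCm38, Serpina1b at chr12:103728156-103830373, Serpina1d at chr12:103763594-103773592, Serpina1a at chr12:103853589-103863562, Serpina1c at chr12:103894926-103904887 and Serpina1e at chr12:103946931-103958975. The listed span of Serpina1b holds the whole of Serpina1d on the same strand. How the authors assigned a read that matches several copies is not given in the sources used here. Of all stretches of 100 bases in the transcripts, 85.6% of those of Serpina1e occurred in no other Serpina gene of the annotation. The values were 86.2% for Serpina1b, 73.7% for Serpina1d, 59.2% for Serpina1a and 41.5% for Serpina1c. Genes outside the Serpina family were not searched. Reads of Serpina1c, and to a lesser degree of Serpina1a, were therefore the least separable, and the sum over the 5 copies is given beside each copy.

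The differences between the copies gather in the reactive centre loop. Over 389 windows of 25 codons along the aligned reading frames, the loop window had 18 positions at which the 5 copies were not all alike. The median window had 4 such positions, and the highest count was 19, in an overlapping window that starts at codon 367. The loop stretches are shown because they are the part by which the copies differ as inhibitors. They are also among the stretches, though not the only ones, by which a read can be assigned to Serpina1e. Each covers codons 363 to 387 of the reading frame, starting at the hinge of the loop, 5′ to 3′ on the coding strand, from the GENCODE M21 transcripts of the chromosome 12 genes. Capitals mark bases that differ from Serpina1e.
Serpina1e: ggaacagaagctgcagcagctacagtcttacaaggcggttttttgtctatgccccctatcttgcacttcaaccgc
Serpina1a: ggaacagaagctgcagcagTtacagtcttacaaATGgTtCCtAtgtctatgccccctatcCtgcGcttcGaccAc
Serpina1b: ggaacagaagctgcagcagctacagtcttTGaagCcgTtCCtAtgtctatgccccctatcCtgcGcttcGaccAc
Serpina1c: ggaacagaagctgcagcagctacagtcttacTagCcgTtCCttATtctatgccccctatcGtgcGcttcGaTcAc
Serpina1d: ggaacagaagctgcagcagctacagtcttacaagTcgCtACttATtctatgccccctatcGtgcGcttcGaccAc
Each of the other 4 copies differed from Serpina1e at 10 to 12 bases of this stretch, and 8 or 9 of the encoded residues changed with them. Serpina1e and Serpina1d, with 10 differing bases, were the closest of these pairs.

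Per library, Serpina1e had 697, 538 and 176 CPM in TA replicates 1 to 3, 30.8, 225 and 119 CPM in model replicates 1 to 3, and 13172, 14367 and 15882 CPM in normal replicates 1 to 3. All TA and model libraries lay far below all normal libraries, while TA replicate 3 lay below model replicate 2. Serpina1b had 3064, 4764 and 5931 CPM in TA, 1850, 2481 and 2019 CPM in model, and 5638, 4694 and 5328 CPM in normal libraries. TA and normal libraries overlapped, and all model libraries were below both. Serpina1d had 1091, 1446 and 1753 CPM in TA, 328, 532 and 371 CPM in model, and 2580, 2088 and 2279 CPM in normal libraries. Here the 3 groups did not overlap, with TA between model and normal. Serpina1a had 1247, 1549 and 1712 CPM in TA, 556, 781 and 561 CPM in model, and 1619, 1731 and 1656 CPM in normal libraries. Serpina1c had 39.0, 54.1 and 63.5 CPM in TA, 17.0, 17.1 and 11.7 CPM in model, and 79.1, 90.9 and 58.8 CPM in normal libraries. For both, model libraries were below all others and TA libraries overlapped with normal ones. The 5 copies summed to 6138, 8351 and 9636 CPM in TA, 2782, 4037 and 3082 CPM in model, and 23089, 22971 and 25204 CPM in normal libraries, with no overlap between the groups.

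**Figure D1:**
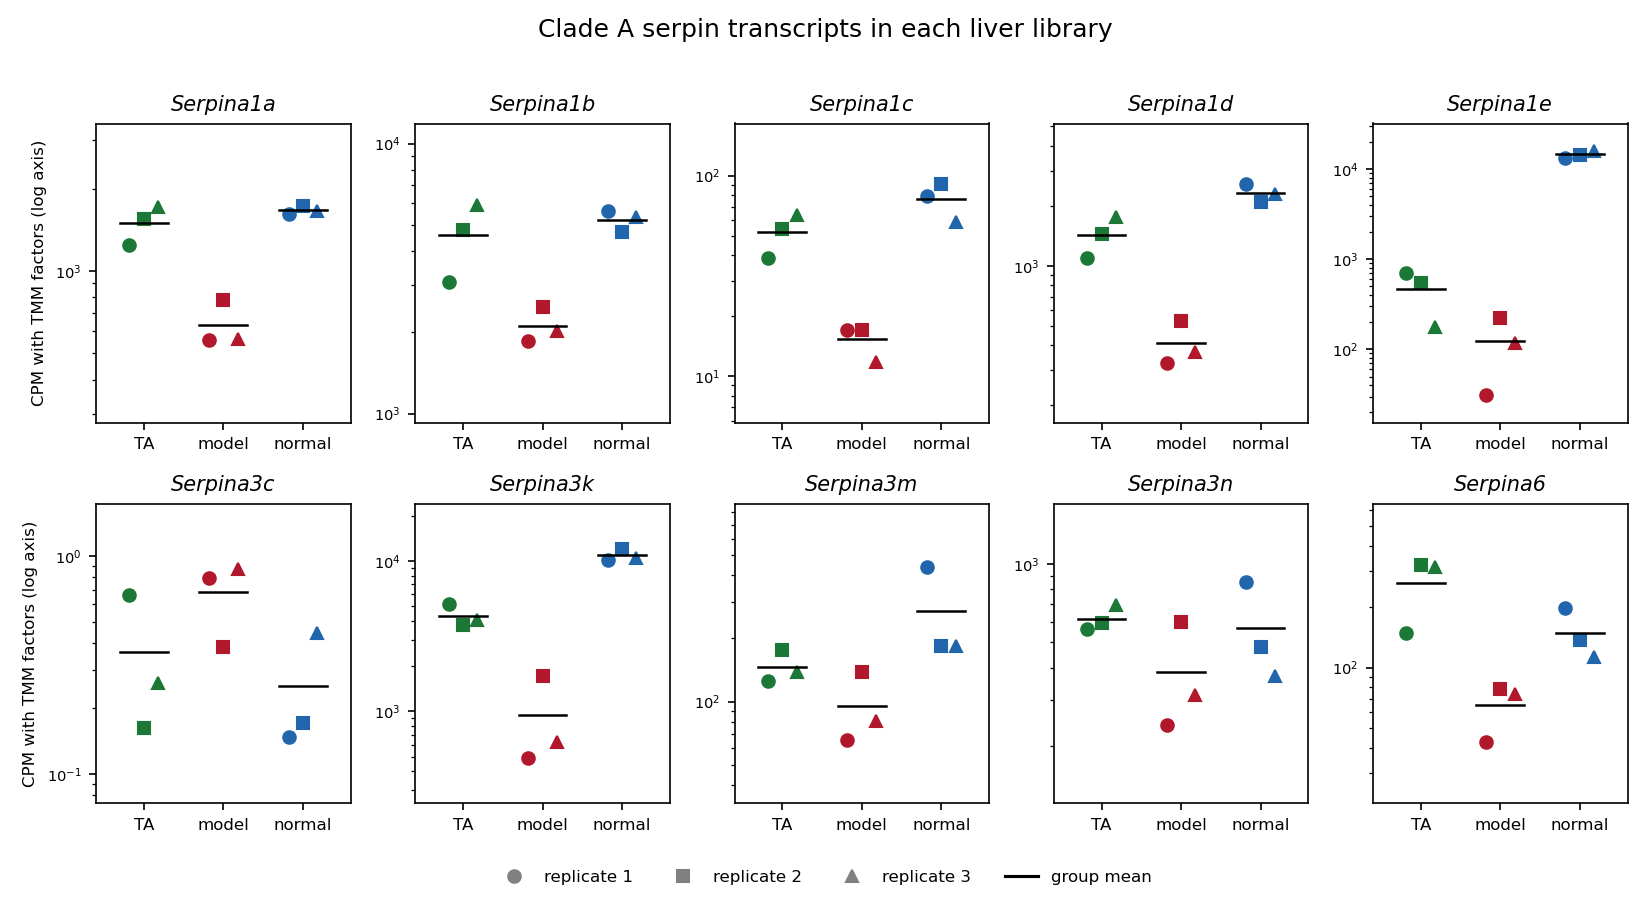
CPM with TMM factors (log axis) of each clade A serpin in the 9 liver libraries, by group; symbols mark the replicate and lines the group mean. Serpina1e lies at 176 to 697 CPM in TA, 30.8 to 225 CPM in model and 13172 to 15882 CPM in normal libraries, while TA and normal libraries overlap for Serpina1a, 1b, 1c, 3c, 3n and Serpina6.

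The Serpina3 genes and Serpina6 lie in the same region of GRCm38. Serpina6 is at chr12:103646630-103657212 and Serpina3c at chr12:104146382-104153870, both on the minus strand. Serpina3k is at chr12:104338486-104346144, Serpina3m at chr12:104338486-104394257 and Serpina3n at chr12:104406729-104414329, all on the plus strand. The listed span of Serpina3m holds the whole of Serpina3k, so that their reads may not be fully separated either, and the sum of Serpina3c, Serpina3k and Serpina3m was fitted as well. The coding sequences of the 4 Serpina3 genes were 82.6% to 91.0% identical over the 6 pairs. Of stretches of 100 bases, 95.2% of those of Serpina3k, 93.9% of those of Serpina3m and 99.8% of those of Serpina3n occurred in no other Serpina gene. The loops of the Serpina3 genes diverge after the hinge, and the 25 codons from the hinge on are shown with capitals at bases that differ from Serpina3k. They start at codon 369 in Serpina3k and at codon 367 in Serpina3m and Serpina3n, 5′ to 3′ on the coding strand.
Serpina3k: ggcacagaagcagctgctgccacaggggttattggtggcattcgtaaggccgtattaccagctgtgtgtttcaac
Serpina3m: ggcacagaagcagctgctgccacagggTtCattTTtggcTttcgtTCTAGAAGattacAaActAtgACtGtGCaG
Serpina3n: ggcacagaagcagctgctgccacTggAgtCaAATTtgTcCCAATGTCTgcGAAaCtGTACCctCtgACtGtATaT
Serpina3m differed from Serpina3k at 22 bases and 12 residues of this stretch, and Serpina3n at 33 bases and 13 residues. The search for the hinge found no stretch in Serpina3c or Serpina6.

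Serpina3k, also called contrapsin, had 5178, 3737 and 4042 CPM in TA replicates 1 to 3, 494, 1721 and 628 CPM in model replicates 1 to 3, and 10197, 11998 and 10487 CPM in normal replicates 1 to 3. The groups did not overlap, and model replicate 2 stood above the other model libraries. Serpina3m had 125, 176 and 139 CPM in TA, 65.6, 138 and 81.1 CPM in model, and 440, 185 and 183 CPM in normal libraries. Normal replicate 1 was the high library, and TA overlapped with model. Serpina3n, which cytokines and glucocorticoids induce in acute phase responses, had 562, 595 and 695 CPM in TA, 242, 601 and 313 CPM in model, and 853, 481 and 372 CPM in normal libraries. All groups overlapped, with normal replicate 1 and model replicate 2 high in their groups. Serpina3c had 11, 2 and 3 counts in TA, 18, 7 and 20 counts in model, and 2, 2 and 6 counts in normal libraries, too few to rank its groups. Serpina6 had 148, 324 and 316 CPM in TA, 42.7, 78.1 and 74.2 CPM in model, and 197, 137 and 112 CPM in normal libraries. All model libraries were below all others, and TA replicate 1 overlapped with normal libraries.

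In model against normal livers most clade A serpins fell. Of the 10 genes, 8 fell and none rose, while 22.6% of the 13200 genes tested fell and 25.4% rose (edgeR quasi-likelihood test, adjusted p under 0.05 by the Benjamini-Hochberg method over all genes tested). All 5 alpha-1-antitrypsin copies, Serpina3k, Serpina3m and Serpina6 fell, and for each of these every model library was below every normal library. The share of all genes tested that separated in this way is not given here. The median log2 change of the 10 genes was -1.45, against 0.01 for all genes tested. Serpina3c and Serpina3n did not pass the test.

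Serpina1e fell by 6.86 ± 0.78 on the log2 scale (SE, adjusted p = 4.61e-05), an estimated 116-fold lower level. The other copies changed by much less. Serpina1d had a log2 change of -2.50 ± 0.27 (adjusted p = 3.25e-05) and Serpina1c of -2.32 ± 0.23 (adjusted p = 2.10e-05). Serpina1a, at -1.40 ± 0.22 (adjusted p = 0.000467), and Serpina1b, at -1.30 ± 0.28 (adjusted p = 0.00292), had the smallest changes of the copies. The sum of the 5 copies fell by 2.85 ± 0.30 (adjusted p = 2.47e-05), and the sum without Serpina1e by 1.55 ± 0.28 (adjusted p = 0.00103). Among the Serpina3 genes, Serpina3k fell by 3.52 ± 0.45 (adjusted p = 0.000109) and Serpina3m by 1.51 ± 0.37 (adjusted p = 0.00567). The sum of Serpina3c, Serpina3k and Serpina3m, which is nearly all Serpina3k, fell by 3.42 ± 0.43 (adjusted p = 0.000102). Serpina3n had a log2 change of -0.56 ± 0.36 (adjusted p = 0.217) and Serpina3c of 1.39 ± 0.71 (adjusted p = 0.126). Serpina6, the glucocorticoid carrier, fell by 1.19 ± 0.33 (adjusted p = 0.0115). Model replicate 2 weighed on several values. Without it the log2 changes were -7.60 for Serpina1e, -4.29 for Serpina3k and -4.15 for the Serpina3 sum, and Serpina3n fell by 1.04 (adjusted p = 0.0171). Without normal replicate 1, Serpina6 was at -0.94 and not called (adjusted p = 0.0513).

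In TA against model livers most of the 10 genes rose. Of the 10 genes, 7 rose and none fell, while 11.8% of all genes tested rose and 11.1% fell. The genes that rose were all 5 alpha-1-antitrypsin copies, Serpina3k and Serpina6, and every TA library was above every model library for each of them except Serpina1e. For this separation too, the share of all genes tested is not given here. The median log2 change of the 10 genes was 1.51, against -0.01 for all genes tested. Both comparisons use the same model libraries, so that their changes are not independent of each other.

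Among the 10 genes the largest rise was that of Serpina3k, by 2.19 ± 0.43 on the log2 scale (SE, adjusted p = 0.00606), an estimated 4.56-fold higher level. Serpina6 rose by 2.01 ± 0.34 (adjusted p = 0.00362), an estimated 4.04-fold higher level. Serpina1d rose by 1.80 ± 0.26 (adjusted p = 0.00220), Serpina1c by 1.77 ± 0.23 (adjusted p = 0.00181) and Serpina1a by 1.25 ± 0.22 (adjusted p = 0.00435). Serpina1b rose by 1.12 ± 0.28 (adjusted p = 0.0165). Serpina1e rose by 1.91 ± 0.62 (adjusted p = 0.0463), with overlapping libraries. The sum of the 5 copies rose by 1.29 ± 0.28 (adjusted p = 0.00911), and the sum of Serpina3c, Serpina3k and Serpina3m by 2.10 ± 0.41 (adjusted p = 0.00611). Serpina3m was at 0.63 ± 0.36 (adjusted p = 0.227), Serpina3n at 0.68 ± 0.36 (adjusted p = 0.194) and Serpina3c at -0.84 ± 0.67 (adjusted p = 0.386), none of them called. The call of Serpina1e was lost when any library but model replicate 2 or TA replicate 3 was left out, with adjusted p of 0.0606 to 0.128. The call of Serpina1b was lost without model replicate 1, model replicate 3, TA replicate 2 or TA replicate 3, with adjusted p of 0.0508 to 0.0705. Without model replicate 2, log2 changes were 2.66 for Serpina1e, 2.95 for Serpina3k and 2.82 for the Serpina3 sum, and Serpina3n was called at 1.16 (adjusted p = 0.0193).

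In TA against normal livers fewer of the serpins were called. Of the 10 genes, 2 were lower and none higher in TA livers, while 5.03% of all genes tested were lower and 10.7% higher. These were Serpina1e and Serpina3k, the most abundant of the 10 in normal liver. The median log2 difference of the 10 genes was -0.37, against 0.03 for all genes tested.

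Serpina1e was lower in TA livers by a log2 difference of -4.94 ± 0.71 (SE, adjusted p = 0.000989), an estimated 30.8-fold. Serpina3k was at -1.33 ± 0.42 (adjusted p = 0.0499), at the edge of the threshold. The sum of the 5 alpha-1-antitrypsin copies was at -1.56 ± 0.28 (adjusted p = 0.00362), whereas the sum without Serpina1e was at -0.29 ± 0.27 (adjusted p = 0.504). The sum of Serpina3c, Serpina3k and Serpina3m was at -1.32 ± 0.40 (adjusted p = 0.0454), a call lost without any one normal or TA library (adjusted p of 0.0528 to 0.140). Serpina1d was at -0.70 ± 0.26 (adjusted p = 0.0881), with every TA library below every normal one, and Serpina6 at 0.82 ± 0.33 (adjusted p = 0.113). The remaining 6 genes lay between -0.88 for Serpina3m and 0.55 for Serpina3c, with adjusted p of 0.121 or more. The call of Serpina3k was lost when any library but model replicate 1 or model replicate 2 was left out (adjusted p of 0.0504 to 0.149), with the replicate block and with limma-voom. Serpina1d was called without model replicate 2 (-0.70, adjusted p = 0.0366), with only the 6 libraries compared (-0.71, adjusted p = 0.0335) and with the DESeq2 Wald test (-0.72, adjusted p = 0.0121), and Serpina6 without TA replicate 1 (1.08, adjusted p = 0.0288).

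**Figure D2:**
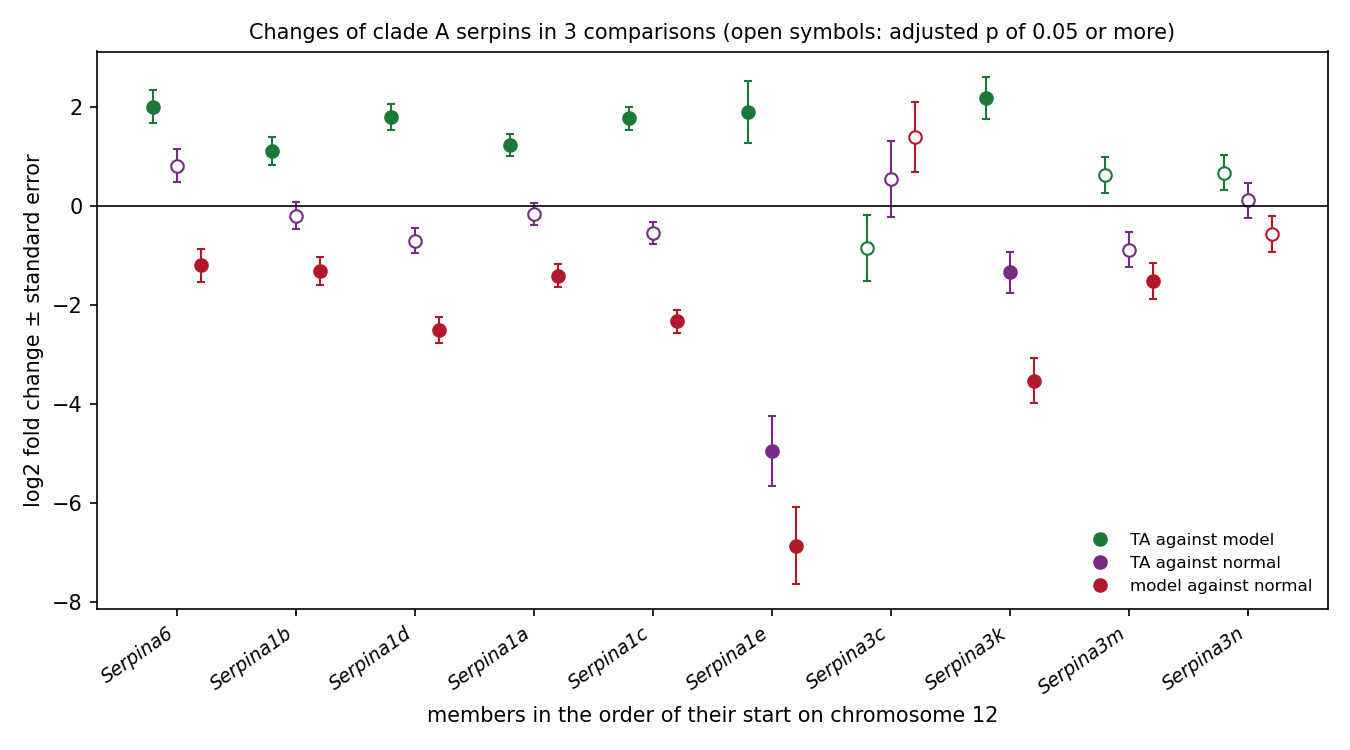
Log2 fold changes with standard errors of the 10 serpins in the 3 comparisons, in the order of their position on chromosome 12; filled symbols have an adjusted p under 0.05. Serpina1e (-6.86 in model against normal, -4.94 in TA against normal) lies farthest from 0, and its neighbours Serpina1a, 1b, 1c and 1d lie between -0.15 and -0.70 in TA against normal.

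The division of alpha-1-antitrypsin reads among the copies differed between diets. Serpina1e gave 6.54% ± 4.77 of the Serpina1 reads in TA, 3.52% ± 2.26 in model and 60.9% ± 3.32 in normal libraries (SD, n = 3 each). Serpina1b gave 56.2% ± 5.86 in TA, 64.5% ± 2.67 in model and 22.0% ± 2.13 in normal libraries. For both copies the difference from normal livers had p = 0.1 in TA and in model (exact permutation test, two-sided), the smallest value that 3 against 3 libraries allow. The share of Serpina1e in TA against model had p = 0.4 in the same exact test. Within TA libraries the share of Serpina1e was 11.4%, 6.44% and 1.83% in replicates 1 to 3, so that TA replicate 3 lay inside the range of model libraries, 1.11% to 5.58%.

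Among the remaining copies, taken without Serpina1e, the division differed less. Serpina1d gave 19.0% ± 0.882 of these reads in TA, 12.8% ± 1.04 in model and 24.9% ± 0.961 in normal libraries (SD, n = 3 each), with no overlap between the groups. Serpina1a gave 20.3% ± 2.44 in TA, 19.9% ± 0.828 in model and 18.1% ± 1.91 in normal libraries, and the groups overlapped. Serpina1b gave 60.0% ± 3.30 in TA, 66.8% ± 1.56 in model and 56.2% ± 1.42 in normal libraries, with the model libraries above all others. For Serpina1d each pair of groups had p = 0.1, and for Serpina1a the values were 0.2 to 0.9 (exact permutation tests, two-sided). These shares are of read counts as the authors assigned them to copies.

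**Figure D3:**
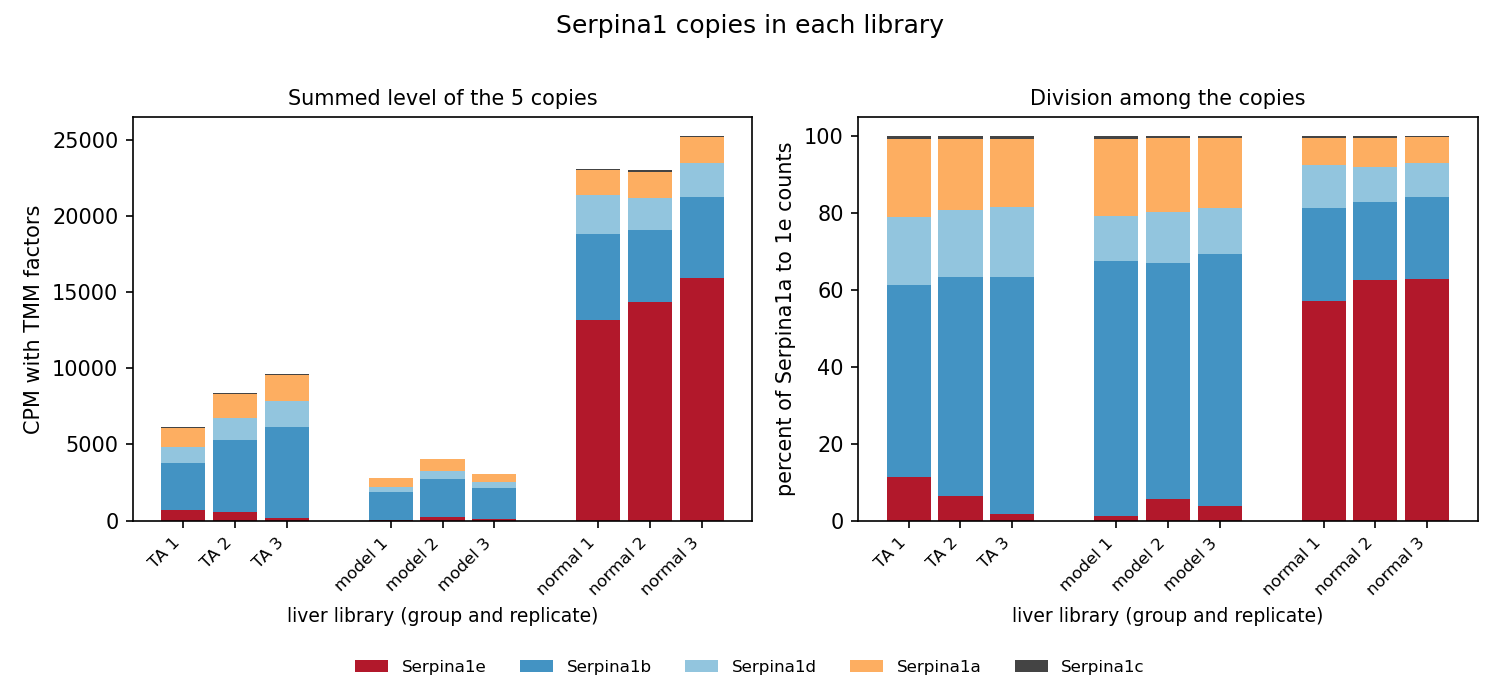
Left, summed CPM of the 5 alpha-1-antitrypsin copies in each library; right, the percent of Serpina1 counts that each copy holds. Serpina1e fills 57.1% to 63.0% of the bars of normal libraries and at most 11.4% of those of TA and model libraries.

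The changes of the serpins ran beside a change of the whole hepatocyte marker list. In model against normal livers 8 of 9 hepatocyte markers fell, with a median log2 change of -1.30. In TA against model livers 8 of 9 rose, with a median of 1.08, and in TA against normal livers the median was -0.03. Markers of macrophages and monocytes moved the other way, as 8 of 10 rose in model against normal livers, 7 of 10 fell in TA against model livers and 7 of 10 were higher in TA against normal livers. They summed to 1058 to 1525 CPM in TA, 2444 to 2897 CPM in model and 433 to 443 CPM in normal libraries. Of the neutrophil markers 4 of 7 were tested and all 4 rose in model against normal livers, and 1 of the 7 was at 0 in all TA libraries, none in model and 2 in all normal libraries. Their sum was 7.49 to 14.5 CPM in TA, 16.4 to 44.9 CPM in model and 2.30 to 14.1 CPM in normal libraries. Also in model against normal livers, 6 of 7 stellate cell markers, 5 of 8 markers of T, NK and B cells, 4 of 6 endothelial markers and 4 of 5 cholangiocyte markers rose. Over all genes tested, 25.4% rose and 22.6% fell in that comparison. The shares were 11.8% and 11.1% in TA against model livers, and 10.7% were higher in TA against normal livers. The sums of the stellate cell markers were 410 to 953 CPM in TA, 715 to 1699 CPM in model and 224 to 320 CPM in normal libraries. In bulk liver, fewer hepatocytes and less of these RNAs per hepatocyte cannot be told apart, and the part of either in the serpin changes was not tested.

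Against albumin, the most familiar hepatocyte product, the serpins differed in how far their ratio moved. The sum of Serpina1a to Serpina1d was 8.03 ± 1.21 counts per 100 albumin counts in TA, 8.04 ± 0.961 in model and 9.79 ± 0.948 in normal libraries (SD, n = 3 each), with all model libraries below all normal ones and TA overlapping with both. Within this sum Serpina1d was at 1.52 ± 0.189 in TA, 1.02 ± 0.0513 in model and 2.44 ± 0.240 in normal libraries, and the groups did not overlap. Serpina1c was at 0.0556 ± 0.00656 in TA, 0.0394 ± 0.0121 in model and 0.0824 ± 0.0291 in normal libraries, with all model libraries below all normal ones. For Serpina1a and Serpina1b the model and normal libraries overlapped. Serpina1e was at 0.536 ± 0.368 in TA, 0.283 ± 0.165 in model and 15.3 ± 2.49 in normal libraries. Serpina3k was at 4.80 ± 1.71 in TA, 2.16 ± 0.847 in model and 11.7 ± 2.87 in normal libraries. Serpina6 was at 0.274 ± 0.0695 in TA, 0.163 ± 0.0441 in model and 0.157 ± 0.0453 in normal libraries.

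Libraries were also scaled to the hepatocyte markers, albumin among them, a choice made after the data had been seen. In model against normal livers Serpina1e (-5.76), Serpina3k (-2.43), Serpina1d (-1.29) and Serpina1c (-1.07) were still called lower, and Serpina3c was called higher (2.68, adjusted p = 0.0102). Serpina1a (-0.18, adjusted p = 0.366), Serpina1b (-0.07, adjusted p = 0.735), Serpina3m (-0.30, adjusted p = 0.357) and Serpina6 (0.05, adjusted p = 0.866) were not. In TA against model livers Serpina3k (1.22), Serpina6 (0.82), Serpina1d (0.65) and Serpina1c (0.59) were called higher and Serpina3c lower (-1.99, adjusted p = 0.0356). The sum of the 5 copies then stood at 0.12 (adjusted p = 0.479) and Serpina1b at -0.08 (adjusted p = 0.702). In TA against normal livers Serpina1e (-4.75), Serpina3k (-1.20) and Serpina1d (-0.63, adjusted p = 0.0452) were called lower. This scaling moved the median of all genes to 1.26 in model against normal, -1.17 in TA against model and 0.13 in TA against normal. Relative to that shift, Serpina1e was at -7.02, Serpina1b at -1.33 and Serpina6 at -1.21 in model against normal livers, against -6.86, -1.31 and -1.20 with TMM factors.

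Plain library totals moved the median of all genes to 0.69 in model against normal, -0.59 in TA against model and 0.14 in TA against normal. Relative to that shift the serpin changes were nearly those given above, for example -6.92 for Serpina1e, -3.60 for Serpina3k and -1.21 for Serpina6 in model against normal livers. A change of scaling moves all genes by nearly the same amount. Here, as with the hepatocyte markers, the nearness therefore follows from taking off the median and is no check of the changes. Without the shift taken off, Serpina6 was at -0.51 (adjusted p = 0.145) and Serpina3n at 0.08 (adjusted p = 0.827) in model against normal livers, and Serpina3c was called higher (2.10, adjusted p = 0.0318). Serpina1b (0.52, adjusted p = 0.0513) and Serpina1e (1.46, adjusted p = 0.0667) were then not called in TA against model livers, and Serpina1d was called lower in TA against normal livers (-0.61, adjusted p = 0.0491). Over all genes the calls in model against normal livers were then 7269 higher and 831 lower, against 3357 and 2987 with TMM factors and 10226 and 318 with the hepatocyte markers. In TA against model livers they were 401 higher and 5721 lower, against 1562 and 1469 with TMM factors and 106 and 10255 with the hepatocyte markers. In TA against normal livers they were 1507 higher and 416 lower, against 1417 and 664 with TMM factors and 947 and 264 with the hepatocyte markers.

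**Figure D4:**
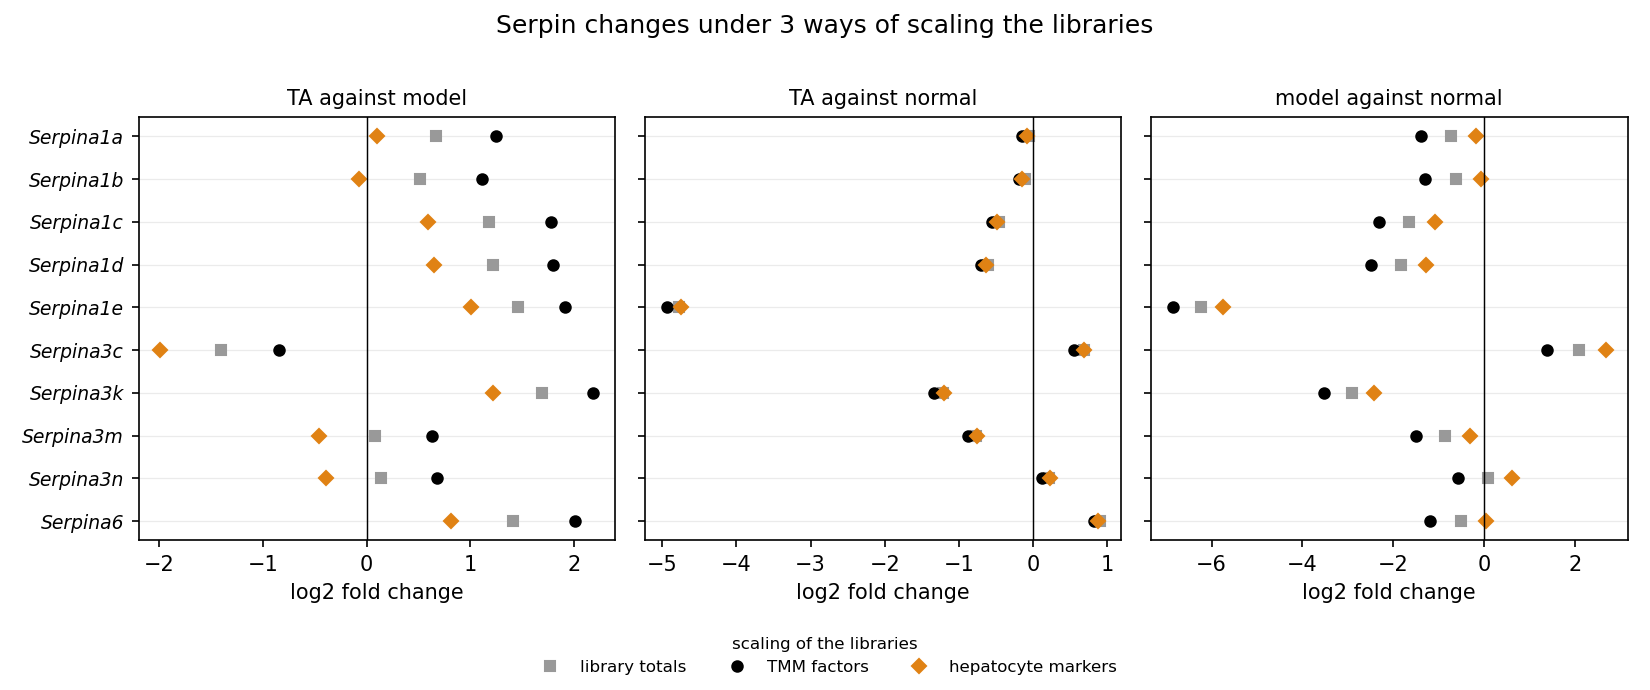
Log2 fold changes of the 10 serpins with libraries scaled by their totals, by TMM factors or to hepatocyte markers. All 10 genes shift nearly alike between scalings in model against normal, Serpina1e from -6.86 with TMM factors to -5.76 with hepatocyte markers, Serpina1b from -1.30 to -0.07 and Serpina6 from -1.19 to 0.05.

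The promoters of the 5 alpha-1-antitrypsin copies were compared because the copies differed in their changes. RefSeq promoters (GRCm38.p6, 250 bases before to 50 after the start) were matched by symbol for 7 of the 10 genes, the 5 copies, Serpina3c and Serpina3n. An aligned stretch of 150 bases near the start differed from that of Serpina1e at 3 to 7 bases in the other copies, an identity of 95.3% to 98.0%. The stretches are shown 5′ to 3′ on the minus strand with capitals at bases that differ from Serpina1e. They cover chr12:103956926-103957075 for Serpina1e, chr12:103863591-103863740 for Serpina1a, chr12:103738166-103738315 for Serpina1b, chr12:103904928-103905077 for Serpina1c and chr12:103773600-103773749 for Serpina1d.
Serpina1e: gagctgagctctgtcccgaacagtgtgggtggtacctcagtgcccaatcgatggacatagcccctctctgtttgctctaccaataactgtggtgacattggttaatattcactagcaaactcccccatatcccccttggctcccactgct
Serpina1a: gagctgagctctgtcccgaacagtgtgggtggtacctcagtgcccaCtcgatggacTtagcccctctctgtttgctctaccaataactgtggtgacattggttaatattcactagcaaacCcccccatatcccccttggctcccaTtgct
Serpina1b: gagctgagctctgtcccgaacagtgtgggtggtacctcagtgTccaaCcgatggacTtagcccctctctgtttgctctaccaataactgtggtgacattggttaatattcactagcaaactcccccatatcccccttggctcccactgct
Serpina1c: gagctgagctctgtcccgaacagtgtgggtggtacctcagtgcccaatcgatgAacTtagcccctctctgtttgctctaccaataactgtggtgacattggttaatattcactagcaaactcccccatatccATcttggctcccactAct
Serpina1d: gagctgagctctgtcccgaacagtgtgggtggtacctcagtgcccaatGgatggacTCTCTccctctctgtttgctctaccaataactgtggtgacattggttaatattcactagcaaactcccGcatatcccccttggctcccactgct
Motifs were searched on both strands of the promoters. The letters GTTAAT, the core of sites of HNF1, a liver transcription factor, stand in all 5 copies and in Serpina3c, and in 7.1% of 32851 RefSeq promoters. The longer form GTTAATNAT, of which GTTAAT is a part, was in none of the 7 promoters and in 0.8% of all. The glucocorticoid receptor letters ACANNNTGT were in Serpina1a, Serpina3c and Serpina3n, and in 6.85% of all promoters. The C/EBP letters TTNNGCAAT were in Serpina1a alone among the 7, and in 2.18% of all. The letters TTGCGCAA (C/EBP), TTCNNNGAA (STAT) and CAAAGTCCA (HNF4) were in none of the 7, and in 0.18%, 8.3% and 0.47% of all.

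Among the other serpins, the changes went both ways. Of the other clade A serpins 7 were tested, and in model against normal livers 3 rose and 3 fell (median log2 change 0.02). Over all genes tested, 25.4% rose and 22.6% fell in that comparison. Serpina3f rose to 21.5 ± 1.61 CPM in model livers, against 5.03 ± 1.07 CPM in normal livers (SD, n = 3 each), by 2.09 ± 0.22 on the log2 scale (adjusted p = 2.56e-05). Serpina3g, an inhibitor of lysosomal cathepsins in immune cells, rose by 2.59 ± 0.30 (adjusted p = 5.55e-05). Serpina11 fell by 1.39 ± 0.18 (adjusted p = 0.000124), and was not called with the hepatocyte markers (-0.14). Of the 7, 1 rose and 1 fell in TA against model livers, near the 11.8% and 11.1% of all genes tested. The one that fell was Serpina3f (-1.23 ± 0.21, adjusted p = 0.00372). Among serpins of other clades 4 rose and 6 fell of 13 in model against normal livers, with library totals 5 and 5. With library totals 7269 of all 13200 genes were higher and 831 lower in that comparison. Serpinb6a rose by 2.36 ± 0.19 (adjusted p = 5.81e-06), and Serpinf2, alpha-2-antiplasmin, fell by 1.63 ± 0.24 (adjusted p = 0.000271). Of the 13, 6 rose and 2 fell in TA against model livers, among these Serpinb6a (-0.96 ± 0.18, adjusted p = 0.00556).

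Of the proteases on which these serpins act, or which cut them, 2 rose and 6 fell of 9 tested in model against normal livers. Over all genes tested, 25.4% rose and 22.6% fell. With the hepatocyte markers, where 10226 of all 13200 genes were higher and 318 lower in that comparison, 3 of the proteases rose and 1 fell. The smallest p was that of Mmp12, macrophage elastase, which cuts alpha-1-antitrypsin. It stood at 176 CPM in TA, 422 CPM in model and 0.289 CPM in normal livers on average, rose by 10.50 ± 0.46 on the log2 scale in model against normal livers (adjusted p = 3.30e-07, 9.89 without normal replicate 3) and fell by 1.26 ± 0.28 in TA against model livers (adjusted p = 0.00937). Cela1, an elastase, fell by 1.72 ± 0.24 in model against normal livers (adjusted p = 0.000179). Neutrophil elastase, Elane, the best known target, had 11 counts in all TA, 23 in all model and 10 in all normal libraries, and was not tested.

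The liver transcription factors known to act on serpin genes included 5 of 12 that fell and 1 that rose in model against normal livers, and 6 that rose in TA against model livers. Over all genes tested, 22.6% fell and 25.4% rose in the first comparison, and 11.8% rose in the second. Nr5a2 fell by 1.28 ± 0.20 (adjusted p = 0.000385) and Hnf4a, a master regulator of hepatocyte genes, by 1.03 ± 0.24 (adjusted p = 0.00443). Cebpd, a factor of the acute phase, was at 0.91 ± 0.34 (adjusted p = 0.0427), a call lost without normal replicate 2 or 3, model replicate 1 or 3, or TA replicate 1 or 3, with values of 0.56 to 0.98. Nr5a2 rose by 0.74 ± 0.20 in TA against model livers (adjusted p = 0.0207), and this call was lost without model replicate 1, TA replicate 2 or TA replicate 3 (0.68 to 0.74). With the hepatocyte markers 6 of the 12 rose and none fell in model against normal livers, where 10226 of all 13200 genes were higher and 318 lower, and none rose and 5 fell in TA against model livers, where 106 of all 13200 genes were higher and 10255 lower. The median of the 12 in model against normal was then 0.77, against 1.26 for all genes. Hnf4a was itself among those markers. With library totals Hnf4a (-0.36, adjusted p = 0.191) was not called in model against normal livers, nor was Nr5a2 in TA against model livers (0.15, adjusted p = 0.547).

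Of the acute phase proteins, 11 fell and 2 rose of 21 in model against normal livers, and 6 rose and none fell in TA against model livers. Over all genes tested, 22.6% fell and 25.4% rose in the first comparison, and 11.8% rose and 11.1% fell in the second. The list pools positive acute phase proteins, which rise in the acute phase, with negative ones, which fall. The pentraxin Crp fell by 1.75 ± 0.26 (adjusted p = 0.000293) and the fibrinogen chain Fgb by 1.71 ± 0.28 (adjusted p = 0.000574). Lcn2, lipocalin 2, rose by 4.03 ± 0.71 (adjusted p = 0.000857). Crp rose by 1.21 ± 0.26 in TA against model livers (adjusted p = 0.00812). With the hepatocyte markers the counts were 9 that rose and 7 that fell in model against normal livers, where 10226 of all 13200 genes were higher and 318 lower, and 2 that rose and 9 that fell in TA against model livers, where 106 of all 13200 genes were higher and 10255 lower. The median of the 21 in model against normal was then -0.05, against 1.26 for all genes. Alb, Ttr, Fgb and Ahsg of this list were themselves among those markers, so that their values were in part set by the scaling.

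Of the genes of IL-6 and glucocorticoid signalling, 5 rose and 5 fell of 16 in model against normal livers, near the 25.4% and 22.6% of all genes tested. In TA against model livers 2 rose and 1 fell, near the 11.8% and 11.1% of all genes tested. Hsd11b1, which regenerates the active glucocorticoid that Serpina6 carries, stood at 563 CPM in TA, 148 CPM in model and 653 CPM in normal livers on average. It fell by 2.15 ± 0.30 in model against normal livers (adjusted p = 0.000191) and rose by 1.93 ± 0.30 in TA against model livers (adjusted p = 0.00269). The cytokine receptor Lifr fell by 1.95 ± 0.28 (adjusted p = 0.000224) and the oncostatin M receptor Osmr rose by 2.11 ± 0.30 (adjusted p = 0.000231) in model against normal livers. With the hepatocyte markers the counts for model against normal livers were 11 that rose and 1 that fell, where 10226 of all 13200 genes were higher and 318 lower.

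Of the growth hormone response genes, 5 fell and 2 rose of 10 in model against normal livers, with library totals 3 and 2. Over all 13200 genes, TMM factors gave 22.6% lower and 25.4% higher in that comparison, and library totals gave 831 lower and 7269 higher. In rat, several liver serpins respond to growth hormone. The growth hormone receptor Ghr fell by 2.57 ± 0.33 (adjusted p = 0.000104) and the repressor Bcl6 by 1.63 ± 0.19 (adjusted p = 5.13e-05). Cux2, a factor with female-biased expression in mouse liver, was at 3.50 ± 0.97 (adjusted p = 0.0118), but at 1.37 and not called without model replicate 1 (adjusted p = 0.103), nor with limma-voom (2.52, adjusted p = 0.142). Of the 10, 2 rose and 1 fell in TA against model livers, near the 11.8% and 11.1% of all genes tested. Ghr rose by 1.52 ± 0.32 (adjusted p = 0.00771), and was at 0.43 and not called with the hepatocyte markers (adjusted p = 0.108). Igfals, which encodes a carrier of insulin-like growth factors in blood and was named after its values were seen, also rose. The one that fell was Bcl6 (-0.71 ± 0.19, adjusted p = 0.0210), whose call was lost without model replicate 3, TA replicate 1 or TA replicate 3 (-0.69 to -0.59).

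In the secretory route, which folds, exports and clears serpins, 10 of 17 genes fell and none rose in model against normal livers, and 6 rose and none fell in TA against model livers. Over all genes tested, 22.6% fell and 25.4% rose in the first comparison, and 11.8% rose and 11.1% fell in the second. The subunits of the asialoglycoprotein receptor, which takes up desialylated glycoproteins, were the leading pair. Asgr2 fell by 1.41 ± 0.27 (adjusted p = 0.00146) and Asgr1 by 1.26 ± 0.26 (adjusted p = 0.00235), and Asgr2 rose by 1.51 ± 0.27 in TA against model livers (adjusted p = 0.00461). With library totals the list had 1 that rose and 2 that fell in model against normal livers. Over all 13200 genes, 7269 were then higher and 831 lower. With the hepatocyte markers 7 of the list rose and none fell, where 10226 of all 13200 genes were higher and 318 lower. The median of the 17 was then 0.61, against 1.26 for all genes. Of the genes named from these lists as lower in model livers, Serpinf2, Cela1, Nr5a2, Lifr, Bcl6, Asgr1 and Asgr2 lost their call with the hepatocyte markers (-0.73 to -0.01), and so did Crp (0.15) and Asgr2 (0.44) in TA against model livers.

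In TA against normal livers, where 10.7% of all genes tested were higher and 5.03% lower, 2 of 7 other clade A serpins were higher and 1 lower, and 4 of 13 serpins of other clades were higher. Of the 10 growth hormone response genes 4 were lower there, Bcl6 (-2.34 ± 0.19, adjusted p = 4.06e-05), Ghr (-1.05 ± 0.31, adjusted p = 0.0418), Stat5a and Stat5b, the last pair named after their values were seen. The call of Ghr was lost without any one library but model replicate 1 or 2 (-1.18 to -0.96, adjusted p of 0.0551 to 0.122) and with limma-voom.

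The genes most like the serpins in their pattern over the 9 libraries were sought by the root mean square difference of centred log2 CPM, among tested genes with a mean of at least 10 CPM. For the alpha-1-antitrypsin sum they were Ces1e (0.237), Ugt2b1 (0.241), Slc22a30 (0.255), Ankrd33b (0.276) and Insig1 (0.297), where the median of 8249 genes was 1.13. For Serpina3k they were Scnn1a (0.297), Tm7sf2 (0.300), C8b (0.309), Cyp4f14 (0.320) and Slc22a7 (0.353), with a median of 1.55. For Serpina3n they were Arhgef26 (0.224), Agxt2 (0.226), Cdip1 (0.256), Lect2 (0.263) and Sirt5 (0.265), with a median of 0.579. For Serpina6 they were Sugct (0.317), Cyp2c23 (0.354), Abcg5 (0.354), Hrg (0.361) and Prodh2 (0.365), with a median of 0.909. All 9 libraries and their 3 groups enter these distances, so that any gene with a similar order of groups comes near.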

How the data were processed

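RNA of 9 liver libraries was measured, 3 per group, and the labels gave each library its group. Trizol extraction and an NEBNext Ultra RNA kit are named per the labels' protocols, and mm9 is the build in the submitters' processing notes. Aligner, counting tool, read length and strand use are not given in the sources used here. Per the file headers, the authors' deposited table holds read counts per gene, used for every test, beside FPKM values made by the authors, used only to order genes by level. In the authors' deposited comparison tables, fold changes are ratios of group means and come with p-values and adjusted p-values. The build of the positions listed in the files is unsettled, so coordinates are those of GENCODE M21 on GRCm38, and promoters are RefSeq sequences of GRCm38.p6. A line of the table without a gene was not used.

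Tests used edgeR 4.0.16 in R 4.3.3. The filterByExpr function, with a minimum count of 10 and a minimum total of 15, kept 13200 genes, all 10 serpins included. Libraries were scaled with TMM factors, which ran from 0.801 to 1.005 for TA, from 1.186 to 1.436 for model and from 0.824 to 0.842 for normal livers. A quasi-likelihood model of group was fitted to all 9 libraries with Benjamini-Hochberg adjustment over all genes tested, and calls were made where the adjusted p was below 0.05. Each adjusted p of a gene or sum is from this test unless another tool is named. For sums, the summed genes were replaced by their total in the whole table. Shares of copies were compared with exact permutation tests.

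The members, gene lists and tests were chosen with earlier results of these data known. All 10 members are named. For each of 8 lists, written from general knowledge, named genes are the 2 with the smallest p in model against normal and the one with the smallest p of the other direction, and values in TA against model are given for the gene with the smallest p in model against normal. Other genes are said to be named after their values were seen, as were the other values of Ghr and Bcl6. The values of 1 gene that this rule names are not reported here. Likeness used log2 CPM with a prior count of 2. The alternatives were DESeq2 size factors, library totals, no filter, a stricter filter, only the 6 libraries compared, a replicate block, DESeq2 1.42.0, limma-voom (limma 3.58.1) and leaving out each library. Scaling to hepatocyte markers and the sum without Serpina1e were added after the data had been seen.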

Additional observations from a re-analysis of the deposited data

How the results depend on the processing

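The results were recomputed under 18 other ways of processing. In model against normal and TA against model, the alpha-1-antitrypsin sum and the sum of Serpina3c, 3k and 3m kept their direction and call, and the count of called serpins stayed within 1.5 times, except when libraries were scaled to hepatocyte markers, a choice made after seeing the data. Then 5 serpins were called in model against normal, 4 lower and 1 higher, and the alpha-1-antitrypsin sum in TA against model was at 0.12 and not called. Of all 13200 genes, that scaling called 318 lower and 10226 higher in model against normal. In TA against normal the count of called serpins was 1 with limma-voom and 1 to 3 when a library was left out. The sum of Serpina3c, 3k and 3m was there at -1.34 and not called with limma-voom (adjusted p = 0.0670), and at -1.49 to -1.24 when a library was left out, with the call lost without each normal and each TA library (adjusted p of 0.0528 to 0.140). The cause of these changes was not tested.

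Whether the replicate numbers pair the libraries is not stated. Of 9 same-number pairs, 1 had a correlation over 0.1 after group means were removed. Pairs of unlike number were not compared, so these values cannot decide whether the libraries are paired. With the replicate numbers as a replicate block, 1 serpin was called in TA against normal, and the sum of Serpina3c, 3k and 3m was at -1.29 (adjusted p = 0.0742). The block also ended the call of Serpina1e in TA against model (2.02, adjusted p = 0.0730).

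Some directions turned round, none of them to a called value. With library totals Serpina3n in model against normal was at 0.084. With the hepatocyte markers Serpina3n was at 0.61, Serpina6 at 0.052 and Hnf4a at 0.18 in model against normal, and Serpina1b was at -0.076, Serpina3m at -0.46, Serpina3n at -0.39, Nr5a2 at -0.44 and Serpina12 at -0.24 in TA against model. When a library was left out in TA against normal, Serpina3n ranged from -0.11 without normal replicate 3 to 0.53, Serpina1b from -0.42 to 0.0024 without TA replicate 1, and Serpina3c from -0.30 without TA replicate 1 to 1.22. In TA against model, Serpina12 ranged from -0.96 without TA replicate 1 to 1.57. Depth limits Serpina3c, whose 2 to 20 counts per library leave its direction undecided.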

Other observations

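The authors' deposited table gave the members much the same folds. In model against normal it listed fold changes of 0.00864 for Serpina1e and 0.0870 for Serpina3k, with adjusted p of 1.09e-166 and 1.49e-59. In the same authors' deposited table Serpina3m was not past an adjusted p of 0.05 in model against normal (0.0961). For TA against model the authors' deposited table had Serpina1b at an adjusted p of 0.0587 and Serpina1e at 0.103, both called here, and Serpina3k at a fold change of 4.61 and Serpina6 at 4.07.

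TA replicate 1 had the lowest level of the TA libraries for 7 of the 10 serpins but the highest for the other 3, Serpina1e, Serpina3k and Serpina3c. Model replicate 1 was the lowest model library for 8 of the 10. Serpina12, vaspin, which was not among the genes named by the rule and was chosen after its values were seen, stood at 4.98 ± 5.63 CPM in TA, 3.45 ± 2.98 CPM in model and 60.6 ± 10.4 CPM in normal livers (SD, n = 3 each). It was lower by a log2 difference of -3.55 ± 0.69 in TA against normal livers (edgeR, adjusted p = 0.00543, and -5.16 without TA replicate 1), with a log2 change of 0.62 ± 0.70 in TA against model livers (adjusted p = 0.549).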
